A study of Homo sapiens with 9 samples.

Results

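Glycolysis is the pathway by which cells split glucose into pyruvate, and the 34 genes described here encode its main steps. They were measured in SW480, an established line of human colorectal cancer cells. The genes cover glucose uptake, the enzymes of glycolysis, lactate formation and export, the enzymes that set fructose 2,6-bisphosphate, the kinases and a phosphatase of the pyruvate dehydrogenase complex, and the pyruvate carrier and that complex itself. The members were chosen by gene symbol, and all 34 were found among the 41041 genes of the deposited table. Of those 41041 genes, 12662 had a mean expression of at least 1 FPKM (fragments scaled by transcript length and library size) over the 9 libraries and were tested, and all 34 members were among them.

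The cells formed 3 groups of 3 biological replicates, compared after 48 h at 1% oxygen. One group received sulforaphane (SFN), the isothiocyanate of broccoli, together with 5-fluorouracil (5-FU), a pyrimidine analogue used as a chemotherapy drug. A second group received SFN alone at 25 µM, and the third was left untreated (control). All groups were hypoxic: no normoxic cells and no cells on 5-FU alone are among these samples. The labels and protocols used here state neither the 5-FU dose nor the SFN dose of the combined treatment. The title of the series names HIF-1α, and the comparisons below describe what each treatment did to the transcripts of this pathway under hypoxia.

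In glycolysis a preparatory phase spends ATP to trap glucose and split it into triose phosphates, and a payoff phase oxidises these to pyruvate and regains ATP. Without enough oxygen, pyruvate is turned into lactate, which regenerates NAD+ and leaves the cell by monocarboxylate transporters. With oxygen, pyruvate enters mitochondria through a carrier and is oxidised by the pyruvate dehydrogenase complex, which kinases of the PDK family switch off. Hypoxia-inducible factor 1 (HIF-1) is known to switch on many of the uptake, glycolysis, lactate and PDK genes by binding short DNA elements with the core ACGTG or GCGTG, and colorectal tumours are known for high glucose uptake.

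Promoter sequences of 5 members are shown because they stand for the main patterns: ALDOC had the lowest fold change of the 34 in both treatments, SLC2A1 encodes a glucose transporter and fell in both, LDHA and PGK1 were far lower in the combined treatment but not in every SFN library, and MPC1 had the highest fold change with SFN+5-FU. Each runs 5′ to 3′ on the strand of the gene, from 250 bases before to 50 bases after its start (RefSeq, GRCh38.p14), and capitals mark the letters ACGTG or GCGTG or, where they lie on the opposite strand, CACGT or CACGC. The palindrome CACGTG holds ACGTG on both strands and counts as 2 matches. ALDOC (ENSG00000109107) lies at chr17:28576846-28577145 on the minus strand and has 5 matches. SLC2A1 (ENSG00000117394) lies at chr1:42958819-42959118 on the minus strand and has 1. LDHA (ENSG00000134333) lies at chr11:18394313-18394612 on the plus strand and has 6, PGK1 (ENSG00000102144) at chrX:78103998-78104297 on the plus strand has 4, and MPC1 (ENSG00000060762) at chr6:166382891-166383190 on the minus strand has 2.
ALDOC: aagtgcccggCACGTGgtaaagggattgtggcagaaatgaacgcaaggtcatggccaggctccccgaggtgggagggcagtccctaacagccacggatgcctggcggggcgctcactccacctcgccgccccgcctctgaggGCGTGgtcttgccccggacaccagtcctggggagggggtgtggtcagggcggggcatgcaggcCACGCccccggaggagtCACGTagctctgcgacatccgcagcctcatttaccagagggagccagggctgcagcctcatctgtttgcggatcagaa
SLC2A1: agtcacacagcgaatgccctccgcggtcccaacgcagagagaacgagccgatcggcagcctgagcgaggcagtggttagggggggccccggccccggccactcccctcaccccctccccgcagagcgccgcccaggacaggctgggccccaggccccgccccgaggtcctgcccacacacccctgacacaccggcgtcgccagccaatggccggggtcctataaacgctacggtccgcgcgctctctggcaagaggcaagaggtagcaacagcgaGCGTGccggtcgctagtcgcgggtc
LDHA: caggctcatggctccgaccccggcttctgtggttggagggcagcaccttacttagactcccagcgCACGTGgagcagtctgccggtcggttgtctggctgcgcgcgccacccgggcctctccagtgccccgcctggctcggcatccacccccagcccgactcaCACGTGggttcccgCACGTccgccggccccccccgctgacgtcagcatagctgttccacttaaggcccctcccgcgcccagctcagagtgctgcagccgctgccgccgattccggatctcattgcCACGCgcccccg
PGK1: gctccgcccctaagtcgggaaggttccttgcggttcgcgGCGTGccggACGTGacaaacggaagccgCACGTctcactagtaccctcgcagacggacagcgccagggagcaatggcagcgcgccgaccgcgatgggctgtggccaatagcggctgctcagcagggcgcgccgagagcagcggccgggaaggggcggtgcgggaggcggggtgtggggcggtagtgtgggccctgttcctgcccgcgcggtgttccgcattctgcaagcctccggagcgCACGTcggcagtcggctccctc
MPC1: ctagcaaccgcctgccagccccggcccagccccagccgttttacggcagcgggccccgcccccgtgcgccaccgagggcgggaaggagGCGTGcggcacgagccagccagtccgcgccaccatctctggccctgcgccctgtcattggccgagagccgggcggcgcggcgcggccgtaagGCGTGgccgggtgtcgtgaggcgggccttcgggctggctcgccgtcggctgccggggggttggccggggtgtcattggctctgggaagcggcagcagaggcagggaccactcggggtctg

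A promoter was matched for 31 of the 34 members, and SLC2A3, PFKFB2 and PDP1 are named only. ACGTG or GCGTG on either strand was found in 21 of the 31 (67.7%), in 48.4% of all 27305 promoters of this length and in 64.4% of the 9236 promoters of tested genes. ACGTG was in 35.5% of the member promoters, against 27.4% of those of tested genes, and GCGTG in 54.8%, against 52.1%. Promoters that hold both count in both shares. Of the members that fell with SFN+5-FU, 14 of 22 promoters held a match, against 7 of the other 9. The matches are a description of these letters in this window and say nothing about binding.

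One library stood apart from its group: SFN replicate 2 was closest to the SFN+5-FU libraries. Over the log2(FPKM + 1) values of the tested genes it correlated at 0.993 with every SFN+5-FU library (Pearson's r, across genes), but at 0.963 and 0.968 with SFN replicates 1 and 3, whose own correlation was 0.990. It stays in its labelled group, and many SFN values, though not all, are also given without it. Whether it carries the right label, or was exchanged with another sample, was not tested, and this bears on every SFN value that includes it and on the comparison of SFN+5-FU with SFN. FPKM summed to between 259184 and 272235 per library, and the depth in fragments is unknown. Of 10 colon epithelial markers 8 were tested, of which 7 fell with SFN+5-FU and 4 with SFN against control, and none rose (limma, adjusted p below 0.05). Over all tested genes 28.0% fell and 38.3% rose with SFN+5-FU, and 22.5% fell and 27.5% rose with SFN. EPCAM and KRT8 were at 114 to 144 and at 521 to 772 FPKM in the 9 libraries, EPCAM being the tested marker that was not called in either comparison. CDH1, which encodes E-cadherin, was at 4.65 to 5.82 FPKM with SFN+5-FU, 4.30 to 6.51 with SFN and 12.65 to 15.4 in control (log2 fold change -1.30 with SFN+5-FU and -1.25 with SFN). VIL1 and KRT19 also fell (-1.41 and -0.79 with SFN+5-FU, -0.78 and -0.54 with SFN), KRT18 fell in both (-0.57 with SFN+5-FU and -0.28 with SFN, or -0.16 and not called with SFN when its replicate 2 is left out), and KRT8, CDX2 and LGALS4 fell with SFN+5-FU (-0.49, -0.42 and -0.60). CDX1 was at 0.07 to 0.40 FPKM, and KRT20, a differentiation keratin of the colon, at 0.05 to 1.39 FPKM. The leukocyte marker PTPRC and the endothelial marker CDH5 were at 0 in all 9 libraries. The 15 markers of fibroblasts, leukocytes and endothelium together summed to 6.14 to 6.51 FPKM with SFN+5-FU, 4.97 to 9.23 with SFN and 9.78 to 10.26 in control, led by ACTA2 (0.91 to 3.18 FPKM) and LYZ (0.76 to 3.48 FPKM). Of those tested, COL1A1, CD14 and LYZ also fell with SFN+5-FU (-0.68, -0.40 and -0.76), and COL1A1 fell with SFN (-0.77). COL1A1 passed the filter only through the control libraries. ACTA2 was not called in either comparison. The part of these markers in the results was not tested, and in bulk libraries fewer cells expressing a gene and less of its RNA per cell cannot be told apart.

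The summed level of the 34 members was lower in every treated library than in any control library, most of all with SFN+5-FU. Their FPKM added up to 4633, 4600 and 4816 in the SFN+5-FU libraries, to 5887, 4724 and 5665 in the SFN libraries, and to 6686, 6766 and 6401 in the control libraries. They made up 1.75% to 1.80% of all FPKM with SFN+5-FU, 1.77% to 2.16% with SFN and 2.37% to 2.54% in control. SFN replicate 2, at 4724, lay within the SFN+5-FU range, and the other SFN libraries lay between the SFN+5-FU and the control libraries. Abundant members weigh most in this sum. The median difference of the members from the control mean, on log2(FPKM + 1), was -0.60, -0.64 and -0.53 in the SFN+5-FU libraries. It was -0.11, -0.58 and -0.11 in SFN replicates 1, 2 and 3, and 0.02, 0.03 and -0.06 in the control libraries.

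With SFN+5-FU against control, 24 members fell, 5 rose and 5 did not pass the test (limma, Benjamini-Hochberg adjusted p below 0.05 over all tested genes). Over all tested genes 28.0% fell and 38.3% rose. The median log2 fold change of the members was -0.62, beside 0.10 over all tested genes, and 8 members had values below -1. In the fit without SFN replicate 2, in which the spread is narrower, 27 members fell and 5 rose, where 31.3% of all tested genes fell and 43.4% rose. The members that rose were thus a smaller share of the 34 (14.7%) than of all tested genes in both fits.

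With SFN alone against control, 13 members fell and 2 rose, where 22.5% of all tested genes fell and 27.5% rose. The median of the members was -0.25, beside 0.05 over all tested genes. Without SFN replicate 2, 14 members fell and 4 rose, where 26.9% of all tested genes fell and 30.0% rose, and the members' median was -0.13. With library weights, which give less weight to libraries that vary more, GAPDH (-0.12), PGK1 (-0.26), PDK2 (-0.26), PDK4 (-0.37), PKM (0.14) and DLAT (0.29) also passed the test with SFN. Both comparisons share the control libraries, so their values are given side by side and are not independent.

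**Figure D1:**
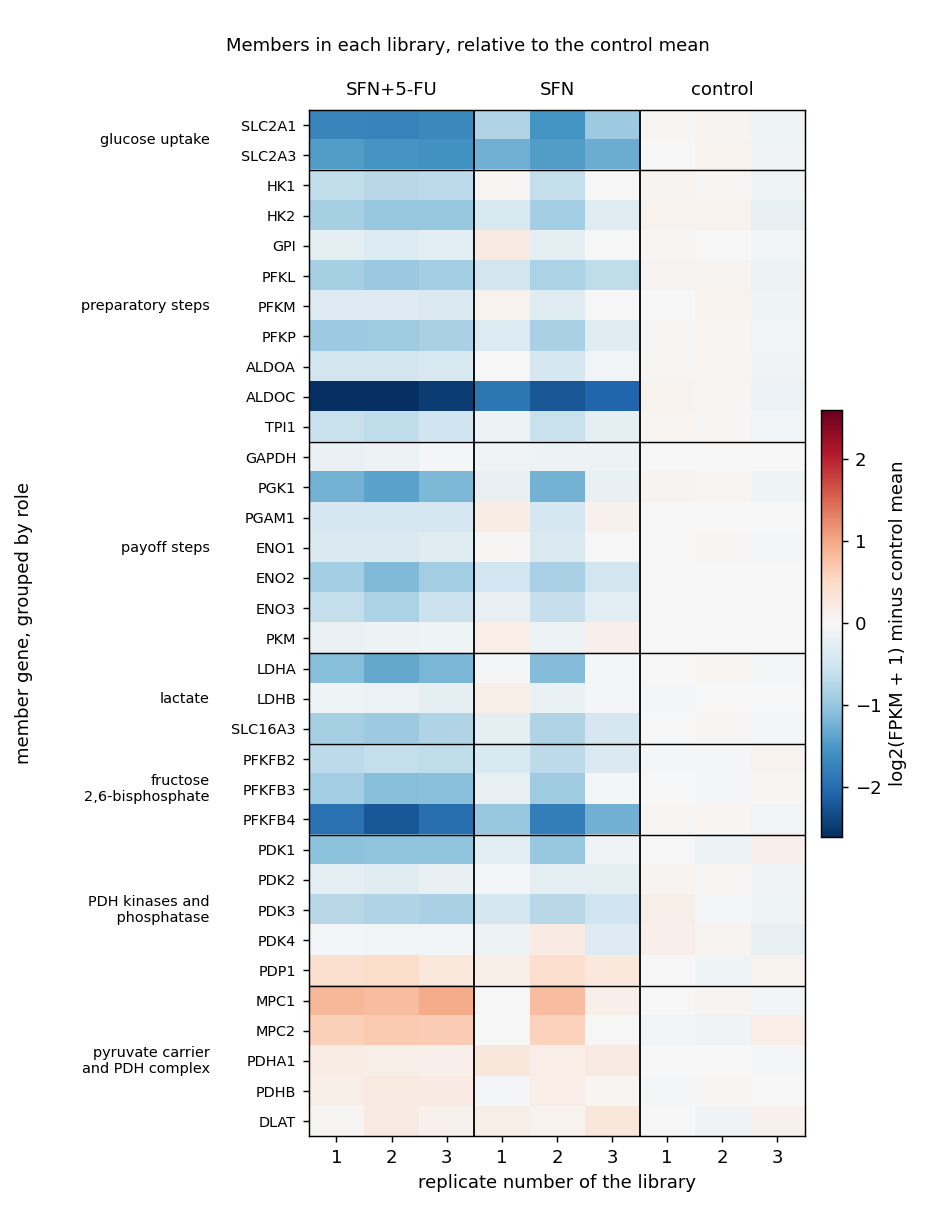
Difference of log2(FPKM + 1) from the control mean for each of the 34 members (rows, grouped by role) in each library (columns, replicates 1 to 3 of SFN+5-FU, SFN and control); blue is lower and red is higher than the control mean. Uptake, ALDOC and PFKFB4 are lower in all treated libraries, MPC1 and MPC2 are higher in the SFN+5-FU libraries and SFN replicate 2, and the column of SFN replicate 2 resembles those of SFN+5-FU.

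Transcripts for glucose uptake fell in both treatments, with both transporter genes below control in every treated library. SLC2A1 encodes GLUT1, the widespread basal glucose transporter. It was at 147, 144 and 152 FPKM in the SFN+5-FU libraries, 283, 164 and 253 FPKM in SFN replicates 1, 2 and 3, and 499, 509.5 and 451 FPKM in the control libraries. The 3 groups did not overlap, and SFN replicate 2 was the SFN library nearest to SFN+5-FU. The log2 fold change was -1.71 with SFN+5-FU (SE 0.169, adjusted p = 4.74e-05) and -1.09 with SFN (SE 0.169, adjusted p = 0.000775), or -0.86 with SFN replicates 1 and 3 alone (adjusted p = 2.41e-05).

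SLC2A3 encodes GLUT3, a transporter of high affinity for glucose. It was at 214, 202 and 197 FPKM in the SFN+5-FU libraries, 248, 213 and 239 FPKM in the SFN libraries and 588, 622 and 551 FPKM in the control libraries. All 6 treated libraries were far below control, and the SFN+5-FU and SFN ranges overlapped. The log2 fold change was -1.52 with SFN+5-FU (adjusted p = 3.26e-06) and -1.33 with SFN (adjusted p = 8.69e-06), and -1.27 without SFN replicate 2. Together the 2 transporters had 346 to 361 FPKM with SFN+5-FU, 377 to 530 with SFN and 1002 to 1131 in control. SLC2A14, a close paralog of SLC2A3 whose reads may be split with it, was at 2.73 to 3.05 FPKM with SFN+5-FU, 2.93 to 3.33 with SFN and 7.95 to 11.0 in control.

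In the preparatory phase all 9 members fell with SFN+5-FU and 5 of 9 fell with SFN. The largest change was in ALDOC, the brain-type isozyme of aldolase, which splits fructose 1,6-bisphosphate into triose phosphates. It was at 2.10, 2.06 and 2.52 FPKM with SFN+5-FU, 4.25, 3.18 and 3.63 FPKM with SFN and 19.8, 19.3 and 16.4 FPKM in control. The groups did not overlap, and all SFN libraries, replicates 1 and 3 included, were well below control. ALDOC means were 12.0% of control with SFN+5-FU (log2 fold change -2.59, SE 0.109, adjusted p = 1.48e-06) and 19.9% with SFN (log2 fold change -2.06, adjusted p = 7.05e-06, and -1.98 without SFN replicate 2). The ubiquitous isozyme ALDOA was at 290 to 303 FPKM with SFN+5-FU, 298 to 399 with SFN and 379 to 418 in control. It fell with SFN+5-FU (-0.45, adjusted p = 0.00414), and with SFN its log2 fold change was -0.17 (adjusted p = 0.197).

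Hexokinase traps glucose in the cell as glucose 6-phosphate, and both of its isozymes here fell with SFN+5-FU. HK2, the isozyme known for its induction in tumours, was at 12.9, 11.7 and 11.8 FPKM with SFN+5-FU, 18.0, 12.7 and 19.3 FPKM with SFN and 26.0, 26.0 and 20.9 FPKM in control. Its treated libraries were all below control. HK2 fell by 0.94 on the log2 scale with SFN+5-FU (adjusted p = 0.000484) and by 0.53 with SFN (adjusted p = 0.0144). The SFN call needed both control replicate 1 (adjusted p = 0.0550 without it) and control replicate 2 (adjusted p = 0.0543 without it), and the value was -0.35 without SFN replicate 2 (adjusted p = 0.0113).

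HK1, the constitutive isozyme, was at 19.6, 18.4 and 19.2 FPKM with SFN+5-FU, 31.7, 20.0 and 31.5 FPKM with SFN and 32.7, 32.1 and 28.8 FPKM in control. SFN replicates 1 and 3 were within the control range, and SFN replicate 2 was near SFN+5-FU. HK1 fell with SFN+5-FU (-0.68, SE 0.153, adjusted p = 0.00362), while the log2 fold change with SFN was -0.19 (adjusted p = 0.322) and 0.02 without SFN replicate 2.

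Phosphofructokinase catalyses the committed step of glycolysis and is built from liver (PFKL), muscle (PFKM) and platelet (PFKP) subunits. PFKL was at 12.2, 11.3 and 12.0 FPKM with SFN+5-FU, 16.1, 12.6 and 14.2 FPKM with SFN and 24.0, 24.1 and 20.8 FPKM in control. PFKP was at 12.0, 12.2 and 12.8 FPKM with SFN+5-FU, 18.6, 13.0 and 19.1 FPKM with SFN and 24.3, 24.9 and 22.6 FPKM in control. Neither subunit's groups overlapped. PFKL and PFKP had log2 fold changes of -0.90 and -0.90 with SFN+5-FU (adjusted p = 6.49e-05 and 0.000286), and of -0.65 and -0.50 with SFN (adjusted p = 0.000567 and 0.0102, and -0.57 and -0.33 without SFN replicate 2). After correction for GC content and length the PFKL values were smaller in size, at -0.51 with SFN+5-FU and -0.35 with SFN, both still called. PFKM was at 12.1 to 12.6 FPKM with SFN+5-FU, 12.6 to 17.2 with SFN and 14.9 to 17.1 in control, a fall with SFN+5-FU (-0.35, adjusted p = 0.0160) whose call was lost without control replicate 2 (-0.31, adjusted p = 0.0605).

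Triose phosphate isomerase, TPI1, which interconverts the triose phosphates, was at 369.8, 349 and 387 FPKM with SFN+5-FU, 505, 371 and 467 FPKM with SFN and 574, 559.7 and 522 FPKM in control. All treated libraries were below control, and SFN replicate 2 lay within the SFN+5-FU range. TPI1 fell with SFN+5-FU (-0.58, adjusted p = 0.00122), and its call with SFN (-0.31, adjusted p = 0.0353) was lost under 7 settings, among them without control replicate 1 (-0.28, adjusted p = 0.108), without control replicate 2 (-0.30, adjusted p = 0.0939), without SFN+5-FU replicate 1 (-0.31, adjusted p = 0.0529) and after quantile normalization (-0.20, adjusted p = 0.0602). Without SFN replicate 2 it was -0.18 (adjusted p = 0.0352). GPI, which turns glucose 6-phosphate into fructose 6-phosphate, was at 49.6 to 52.9 FPKM with SFN+5-FU, 53.9 to 74.8 with SFN and 60.7 to 65.5 in control. Its fall with SFN+5-FU (-0.30, adjusted p = 0.0281) was lost without control replicate 1 or 2 or any 1 SFN+5-FU replicate, where the log2 fold change ran between -0.32 and -0.28 and the adjusted p reached up to 0.0837. The GPI call was also lost after correction for GC content and length (-0.19, adjusted p = 0.107) and with no filter on low genes (-0.30, adjusted p = 0.0667), and after quantile normalization the value was larger in size (-0.46, adjusted p = 0.00497).

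In the payoff phase the members split: PGK1 and the enolase isozymes ENO2 and ENO3 had the lowest fold changes, and GAPDH and PKM did not pass the test. With SFN+5-FU 5 of 7 fell and none rose, and with SFN 2 of 7 fell and none rose. PGK1, phosphoglycerate kinase, catalyses the first ATP-forming step. It was at 109, 97.6 and 113 FPKM with SFN+5-FU, 224, 109 and 223 FPKM with SFN and 268, 266 and 237 FPKM in control. SFN replicate 2 lay inside the SFN+5-FU range, and SFN replicates 1 and 3 lay just below the lowest control. The log2 fold change was -1.26 with SFN+5-FU (SE 0.237, adjusted p = 0.00137) and -0.54 with SFN (adjusted p = 0.0841), and with SFN it passed the test when any 1 SFN library was left out. It was -0.71 without SFN replicate 1 (adjusted p = 0.0383), -0.20 without replicate 2 (adjusted p = 0.0486) and -0.71 without replicate 3 (adjusted p = 0.0465).

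Enolase forms phosphoenolpyruvate. ENO2, its neuronal isozyme, was at 23.5, 19.4 and 23.2 FPKM with SFN+5-FU, 30.7, 24.0 and 31.2 FPKM with SFN and 44.5, 44.0 and 43.4 FPKM in control. No library of one group reached another group's range. ENO2 fell by 0.97 with SFN+5-FU (adjusted p = 8.53e-05) and by 0.61 with SFN (adjusted p = 0.00164; -0.49 without SFN replicate 2) on the log2 scale.

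ENO3, the muscle isozyme, was at 2.59, 2.12 and 2.77 FPKM with SFN+5-FU, 3.84, 2.66 and 3.50 FPKM with SFN and 4.61, 4.51 and 4.49 FPKM in control, with all treated libraries below control. Its log2 fold changes were -0.67 with SFN+5-FU (adjusted p = 0.000788) and -0.36 with SFN (adjusted p = 0.0248). The SFN call was lost without control replicate 1 (-0.35, adjusted p = 0.0724), 2 (-0.37, adjusted p = 0.0632) or 3 (-0.37, adjusted p = 0.0566), and it was -0.25 without SFN replicate 2 (adjusted p = 0.0371). With no filter the SFN call of ENO3 was lost as well (adjusted p = 0.0591). The ubiquitous enolase ENO1 was at 393 to 411 FPKM with SFN+5-FU, 396 to 519 with SFN and 494 to 523 in control, and it fell with SFN+5-FU (-0.36, adjusted p = 0.00993; -0.21, adjusted p = 0.0429, after quantile normalization). With SFN its log2 fold change was -0.12 (adjusted p = 0.339).

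GAPDH, glyceraldehyde 3-phosphate dehydrogenase and the most abundant member, was at 2013 to 2174 FPKM with SFN+5-FU, 2074 to 2128 with SFN and 2241 to 2288 in control. Its log2 fold changes were -0.12 with SFN+5-FU (adjusted p = 0.0769, and 0.0376 without SFN replicate 2) and -0.11 with SFN (adjusted p = 0.110). PKM, the pyruvate kinase of most tissues and tumours, was at 275 to 287 FPKM with SFN+5-FU, 281 to 348 with SFN and 306 to 311 in control. PKM changed by -0.13 with SFN+5-FU (adjusted p = 0.166) and by 0.06 with SFN (adjusted p = 0.563) on the log2 scale, neither of them called. Without SFN replicate 2 both passed the test, in opposite directions (-0.13, adjusted p = 0.00942, with SFN+5-FU, and 0.15, adjusted p = 0.0113, with SFN).

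PGAM1, phosphoglycerate mutase, was at 118 to 120 FPKM with SFN+5-FU, 118 to 186 with SFN and 161 to 164 in control. SFN replicates 1 and 3 were above every control library, and SFN replicate 2 was level with SFN+5-FU. PGAM1 fell with SFN+5-FU (-0.44, adjusted p = 0.0216), a call lost without any 1 of the control or SFN+5-FU libraries (adjusted p up to 0.0572, log2 fold change -0.45 to -0.44) and with no filter (adjusted p = 0.0602). With SFN it was -0.05 (adjusted p = 0.802), and 0.16 without SFN replicate 2 (adjusted p = 0.0116).

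**Figure D2:**
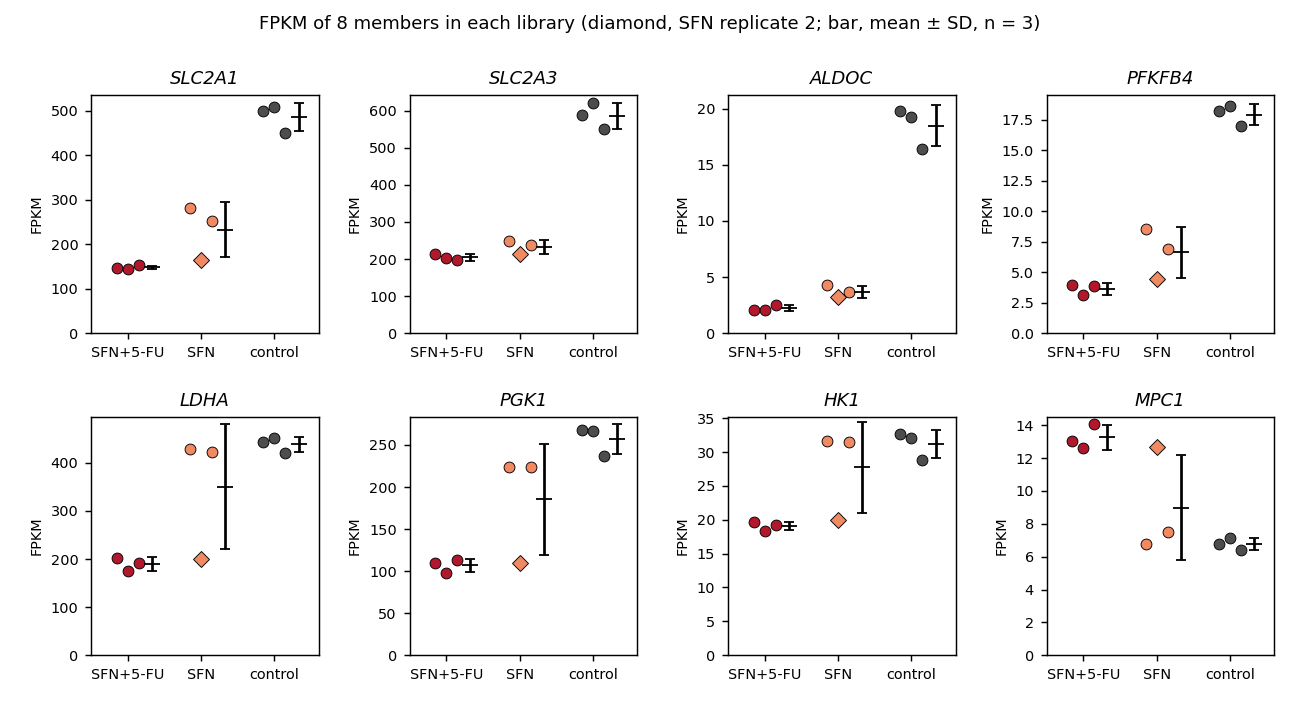
FPKM of 8 members in each library of SFN+5-FU, SFN and control, from 0 on a linear axis; points are libraries, diamonds are SFN replicate 2, and bars are the mean ± SD of 3 libraries. SLC2A1, SLC2A3, ALDOC and PFKFB4 are below control in all SFN libraries, whereas LDHA, PGK1, HK1 and MPC1 are close to control in SFN replicates 1 and 3 and close to SFN+5-FU in SFN replicate 2.

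At the lactate branch, LDHA and SLC16A3 fell with SFN+5-FU, and SLC16A3 alone fell with SFN. LDHA encodes the lactate dehydrogenase subunit that favours lactate formation. It was at 202, 174 and 192 FPKM with SFN+5-FU, 429, 200.5 and 423 FPKM with SFN and 443, 451 and 421 FPKM in control. SFN replicates 1 and 3 were within the control range, and SFN replicate 2 was within the SFN+5-FU range. LDHA fell with SFN+5-FU (-1.21, SE 0.247, adjusted p = 0.00218); with SFN its log2 fold change was -0.40 (SE 0.247, adjusted p = 0.200), and -0.04 without SFN replicate 2 (adjusted p = 0.606).

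SLC16A3 encodes MCT4, the lactate exporter of glycolytic cells. It was at 33.2, 31.0 and 34.8 FPKM with SFN+5-FU, 51.7, 35.1 and 44.6 FPKM with SFN and 61.7, 62.2 and 58.8 FPKM in control, and the groups did not overlap. Its log2 fold changes were -0.87 with SFN+5-FU (adjusted p = 0.000263) and -0.48 with SFN (adjusted p = 0.00905, and -0.34 without SFN replicate 2). With GC content and transcript length corrected for, the values were -0.56 with SFN+5-FU (adjusted p = 0.00180) and -0.24 with SFN (adjusted p = 0.101). LDHB, the subunit that favours pyruvate formation, was at 173 to 190 FPKM with SFN+5-FU, 184 to 230 with SFN and 203 to 209 in control. Its log2 fold changes were -0.18 with SFN+5-FU (adjusted p = 0.0833, 0.0241 without SFN replicate 2 and 0.0276 without SFN replicate 1) and -0.02 with SFN (adjusted p = 0.848). The SFN+5-FU value of LDHB passed the test after correction for GC content and length (-0.37, adjusted p = 0.00316), after quantile normalization (-0.24, adjusted p = 0.0221), with library weights (-0.15, adjusted p = 0.0113) and in a fit of only the 6 libraries compared (-0.18, adjusted p = 0.00743).

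The PFKFB enzymes make and degrade fructose 2,6-bisphosphate, the strongest known activator of phosphofructokinase, and all 3 members fell with SFN+5-FU. PFKFB4 was at 3.94, 3.10 and 3.88 FPKM with SFN+5-FU, 8.56, 4.41 and 6.93 FPKM with SFN and 18.2, 18.6 and 17.0 FPKM in control. The groups did not overlap, and SFN replicate 2 was the lowest SFN library. PFKFB4 means were 20.3% of control with SFN+5-FU (log2 fold change -2.03, adjusted p = 2.79e-05) and 37.0% with SFN (-1.35, adjusted p = 0.000364, and -1.12 without SFN replicate 2).

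PFKFB3, whose kinase activity far exceeds its phosphatase activity, was at 6.87, 5.71 and 5.86 FPKM with SFN+5-FU, 11.6, 6.59 and 13.1 FPKM with SFN and 13.6, 12.9 and 14.0 FPKM in control. SFN replicates 1 and 3 were at or near the control range and SFN replicate 2 was within the SFN+5-FU range. PFKFB3 fell with SFN+5-FU (-1.02, adjusted p = 0.00152); with SFN it was -0.39 (adjusted p = 0.123), -0.12 without SFN replicate 2 and -0.57 without SFN replicate 3 (adjusted p = 0.0385). PFKFB2, the heart isozyme, was at 1.97, 2.08 and 1.98 FPKM with SFN+5-FU, 2.58, 1.94 and 2.64 FPKM with SFN and 3.60, 3.60 and 4.04 FPKM in control, with all treated libraries below control. PFKFB2 fell by 0.66 with SFN+5-FU (adjusted p = 0.000319) and by 0.49 with SFN (adjusted p = 0.00246) on the log2 scale. Without SFN replicate 2 its SFN value was -0.39.

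Of the 4 kinases that switch off pyruvate dehydrogenase, 3 fell with SFN+5-FU and 1 with SFN. PDP1, a phosphatase gene that reverses them, rose in both, with a call under SFN that was lost in 8 of 20 settings. PDK1, the best known hypoxia-induced kinase of the family, was at 0.82, 0.85 and 0.85 FPKM with SFN+5-FU, 2.13, 0.95 and 2.59 FPKM with SFN and 2.83, 2.50 and 3.21 FPKM in control. SFN replicate 2 was again near SFN+5-FU, and SFN replicate 3 was within the control range. PDK1 fell with SFN+5-FU (-1.06, SE 0.193, adjusted p = 0.00119) to 29.5% of the control mean; with SFN it was -0.46 (adjusted p = 0.0769), -0.19 without SFN replicate 2 and -0.63 without SFN replicate 3 (adjusted p = 0.0225).

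PDK3 was at 1.60, 1.51 and 1.41 FPKM with SFN+5-FU, 2.15, 1.63 and 1.99 FPKM with SFN and 3.78, 3.22 and 2.97 FPKM in control, with no overlap between the groups. PDK3 had log2 fold changes of -0.78 with SFN+5-FU (adjusted p = 0.000151) and -0.56 with SFN (adjusted p = 0.00142, and -0.49 without SFN replicate 2). At these levels the added 1 FPKM shrinks the fold change, and with 5 FPKM added the SFN+5-FU values were -0.35 for PDK3, -0.43 for PDK1, -0.32 for PFKFB2, -0.35 for ENO3 and -1.70 for ALDOC, all called. On the FPKM scale PDK3 means were 45.3% of control with SFN+5-FU and 57.9% with SFN. PDK2, the most abundant kinase of the family here, was at 5.72 to 6.26 FPKM with SFN+5-FU, 6.01 to 7.05 with SFN and 6.77 to 7.71 in control. Its fall with SFN+5-FU (-0.25, adjusted p = 0.0206) was lost without control replicate 1 or 2 or SFN+5-FU replicate 1 or 2 (log2 fold change -0.25 to -0.22, adjusted p up to 0.0807), and after correction for GC content and length (-0.11, adjusted p = 0.167). With SFN it was -0.18 (adjusted p = 0.0968), and -0.24 without SFN replicate 1 (adjusted p = 0.0293).

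PDK4, known for its induction by fasting, was at 1.09 to 1.11 FPKM with SFN+5-FU, 0.74 to 1.56 with SFN and 0.91 to 1.41 in control, and its groups overlapped (adjusted p = 0.706 with SFN+5-FU and 0.648 with SFN). PDP1, a phosphatase that switches the dehydrogenase on, was at 15.7 to 18.1 FPKM with SFN+5-FU, 14.3 to 17.5 with SFN and 11.6 to 13.7 in control. It rose with SFN+5-FU (0.39, adjusted p = 0.00496) and with SFN (0.28, adjusted p = 0.0315). The SFN call was lost without control replicate 1 or 2 or SFN replicate 2 or 3 (log2 fold change 0.21 to 0.29, adjusted p up to 0.119), and without SFN replicate 2 the adjusted p was 0.0574. It was also lost after quantile normalization (0.20, adjusted p = 0.0724), with no filter (adjusted p = 0.0670) and in a fit of only the 6 libraries compared (adjusted p = 0.0606).

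Both subunits of the mitochondrial pyruvate carrier, which together carry pyruvate over the inner membrane, rose with SFN+5-FU and had the highest fold changes of the 5 members that rose, the others being PDP1, PDHA1 and PDHB. MPC1 was at 13.1, 12.6 and 14.1 FPKM with SFN+5-FU, 6.79, 12.7 and 7.49 FPKM with SFN and 6.79, 7.15 and 6.43 FPKM in control. MPC2 was at 17.5, 18.3 and 18.3 FPKM with SFN+5-FU, 11.2, 17.5 and 11.0 FPKM with SFN and 10.5, 10.4 and 12.6 FPKM in control. For both genes the SFN+5-FU libraries were above every control, SFN replicate 2 was at or just below the SFN+5-FU range, and SFN replicates 1 and 3 were at or close to control levels. MPC1 and MPC2 rose by 0.87 (SE 0.179, adjusted p = 0.00220) and 0.65 (SE 0.155, adjusted p = 0.00493) with SFN+5-FU, to 195% and 162% of the control means. After correction for GC content and length the MPC2 value was 0.40 (adjusted p = 0.0327). With SFN the change was 0.31 for MPC1 (adjusted p = 0.173) and 0.20 for MPC2 (adjusted p = 0.306), and without SFN replicate 2 it was 0.06 for MPC1 and close to 0 for MPC2. For MPC1 it was 0.47 without SFN replicate 1 (adjusted p = 0.0475).

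The pyruvate dehydrogenase genes changed little. PDHA1, the catalytic alpha subunit, was at 27.8 to 28.9 FPKM with SFN+5-FU, 28.4 to 31.2 with SFN and 24.8 to 25.5 in control. It rose with SFN (0.23, adjusted p = 0.00850; 0.11, adjusted p = 0.209, after quantile normalization). With SFN+5-FU it was 0.16 (adjusted p = 0.0321), but quantile normalization turned the direction (-0.03, adjusted p = 0.705), and the call was lost after correction for GC content and length (0.09, adjusted p = 0.198), with median-of-ratios scaling (0.11, adjusted p = 0.159) and without any 1 control or SFN+5-FU library (0.14 to 0.17, adjusted p up to 0.107). PDHB, the beta subunit, was at 15.8 to 16.7 FPKM with SFN+5-FU, 13.6 to 16.0 with SFN and 13.5 to 14.4 in control, and DLAT, the acetyltransferase of the complex, was at 9.31 to 10.9 FPKM with SFN+5-FU, 9.70 to 11.3 with SFN and 8.47 to 9.79 in control. PDHB rose with SFN+5-FU (0.20, adjusted p = 0.0297), a call lost without any 1 control or SFN+5-FU library (0.17 to 0.22, adjusted p up to 0.107) and after quantile normalization (0.06, adjusted p = 0.411). DLAT had log2 fold changes of 0.13 with SFN+5-FU and 0.18 with SFN (adjusted p = 0.194 and 0.104; with SFN 0.0429 without SFN replicate 2).

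**Figure D3:**
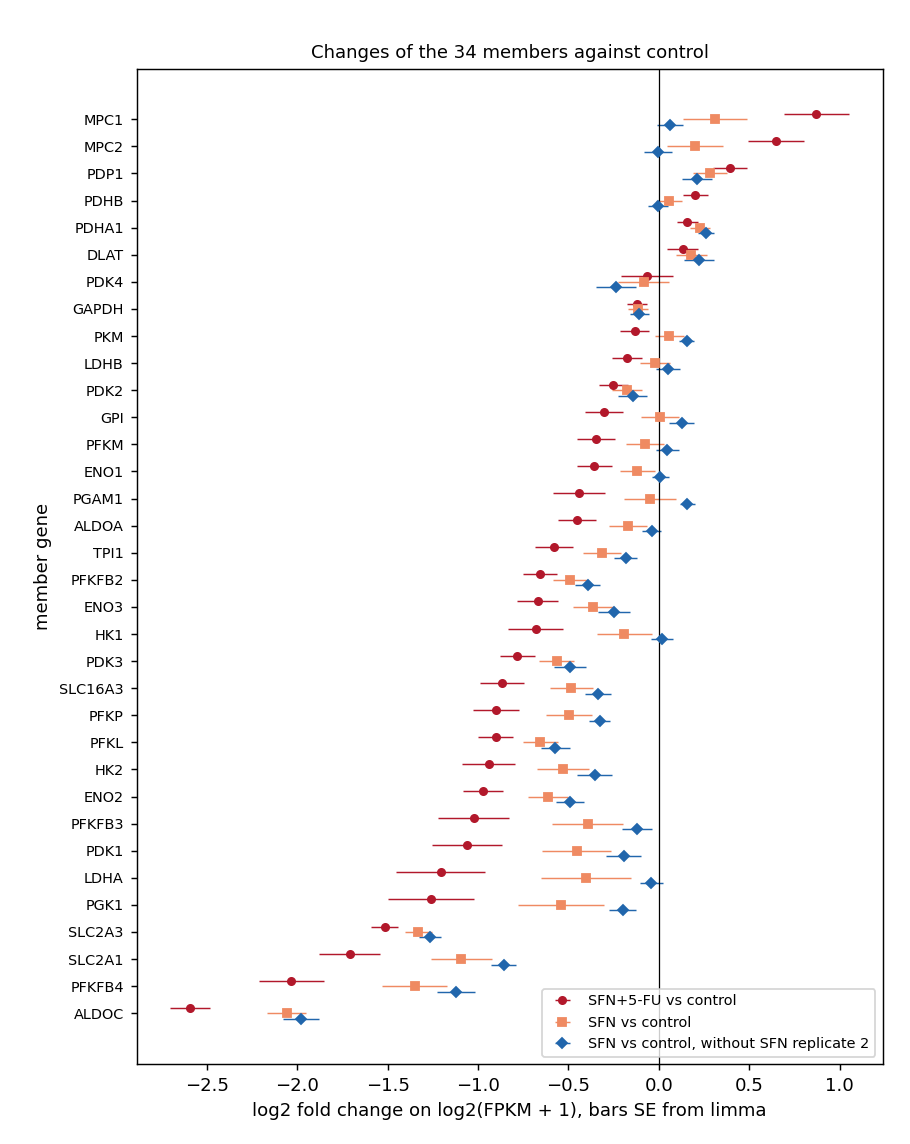
Log2 fold change on log2(FPKM + 1) of each of the 34 members against control, with SE bars, for SFN+5-FU (circles), SFN (squares) and SFN without replicate 2 (diamonds), ordered by the SFN+5-FU value. ALDOC, PFKFB4, SLC2A1 and SLC2A3 lie lowest in all 3. For LDHA and HK1 the diamonds lie near 0, and for PGK1 the diamond lies at -0.20.

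SFN+5-FU and SFN differ in these labels by 5-FU, and perhaps by the SFN dose. In the fit of all 9 libraries, in which SFN replicate 2 widens the spread, 0 members were called, where 0.00790% of all tested genes were lower (1 gene, ENSG00000260342, named after its value was seen) and 0 were higher. At an unadjusted p below 0.05, limma put 22 members lower and 2 higher with SFN+5-FU, where 13.7% of all tested genes were lower and 17.8% higher. Without SFN replicate 2, 25 members were lower and 3 higher with SFN+5-FU than with SFN, where 21.4% of all tested genes were lower and 29.8% higher. The members' median log2 fold change in that fit was -0.40, beside 0.05 over all tested genes.

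In that same fit, the lower members included all 9 of the preparatory phase, 6 of 7 of the payoff phase and all 3 of the lactate branch. On log2(FPKM + 1) LDHA differed most (-1.17, adjusted p = 1.2e-05), followed by PGK1 (-1.06), PFKFB4 (-0.91), PFKFB3 (-0.90), PDK1 (-0.87) and SLC2A1 (-0.85). SLC2A3, by contrast, was -0.25 (adjusted p = 0.00844). This order depends on the added 1 FPKM, which shrinks the value of low genes such as PDK1. The PDK1 mean was 2.36 FPKM in SFN replicates 1 and 3 and 0.84 with SFN+5-FU, and that of LDHA was 426 and 190 FPKM. MPC1, MPC2 and PDHB were higher (0.81, 0.66 and 0.21, adjusted p = 5.26e-05, 0.000224 and 0.0135). These differences hold for SFN replicates 1 and 3, and the cause of the position of SFN replicate 2 was not tested.

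Within isozyme families some members took other shares in the treated than in the control libraries. LDHA was 51.6%, 48.4% and 52.6% of the summed LDHA and LDHB FPKM in the SFN+5-FU libraries, 65.1%, 52.1% and 67.9% in the SFN libraries and 68.6%, 68.3% and 66.9% in the control libraries. The SFN+5-FU libraries and SFN replicate 2 were thus the 4 lowest. ALDOC made up 0.7% ± 0.06 of the aldolase FPKM with SFN+5-FU, 1.0% ± 0.07 with SFN and 4.4% ± 0.22 in control (SD, n = 3). The share of PFKM in phosphofructokinase was 33.9% ± 1.06 with SFN+5-FU, 32.9% ± 0.36 with SFN and 25.5% ± 0.34 in control (SD, n = 3).

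PFKFB4 was 30.8% ± 2.32 of the PFKFB FPKM with SFN+5-FU, 34.1% ± 3.53 with SFN and 51.0% ± 2.31 in control (SD, n = 3), and PFKFB3 took the larger share in both treatments. PDK1 was 8.9% ± 0.32 of the PDK FPKM with SFN+5-FU, 16.5% ± 6.8 with SFN and 19.5% ± 3.22 in control (SD, n = 3). Without SFN replicate 2 the PDK1 share with SFN was 20.1%. For HK2 the share was 38.8% ± 0.8 with SFN+5-FU, 37.7% ± 1.28 with SFN and 43.7% ± 1.46 in control (SD, n = 3). A two-sided exact permutation test of 3 against 3 libraries cannot go below p = 0.1, which these shares reached against control, except LDHA (p = 0.2) and PDK1 (p = 0.5) with SFN. Adjusted over the 60 shares and comparisons tested, the smallest exact p was 0.162.

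**Figure D4:**
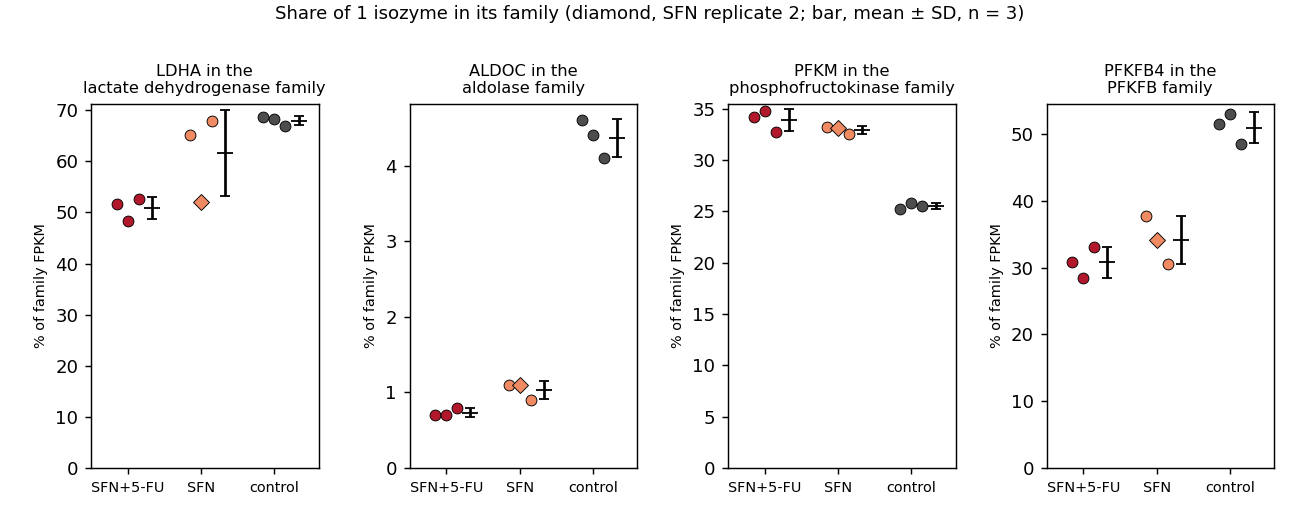
Share of LDHA, ALDOC, PFKM and PFKFB4 in the summed FPKM of their families in each library, in percent; points are libraries, diamonds are SFN replicate 2, and bars are the mean ± SD of 3 libraries. ALDOC and PFKFB4 take smaller shares and PFKM a larger one in all 6 treated libraries, and LDHA a smaller one in SFN+5-FU and SFN replicate 2.

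Genes next to the pathway were read from a list of 71, of which 68 were found and 44 had a mean of at least 1 FPKM. With SFN+5-FU 38.6% of them fell (17) and 34.1% rose (15), beside 28.0% and 38.3% of all tested genes, and the median log2 fold change was -0.11. With SFN 27.3% fell and 27.3% rose (12 each), near the 22.5% and 27.5% of all tested genes, and the median was -0.01. The other uptake genes did not move one way. SLC5A1, the sodium-coupled glucose transporter SGLT1, was at 0.13 to 0.28 FPKM with SFN+5-FU, 0.34 to 0.73 with SFN and 2.36 to 2.63 in control (log2 fold change -1.54 with SFN+5-FU and -1.15 with SFN). Its mean reached 1 FPKM only through the control libraries, so its fall, counted in both comparisons, follows in part from the filter. Across the alternatives tried the SFN+5-FU value of SLC5A1 ran from -3.14 to -0.53. SLC2A10 and SLC2A14 fell as well (-0.89 and -1.35 with SFN+5-FU, -0.79 and -1.29 with SFN), while SLC2A6 rose (0.74 with SFN+5-FU and 0.53 with SFN) and SLC2A8 rose with SFN+5-FU (0.88, adjusted p = 0.00223). SLC16A1, the lactate and pyruvate transporter MCT1, was at 20.2 to 23.3 FPKM with SFN+5-FU, 22.3 to 46.8 with SFN and 46.6 to 49.7 in control. It fell by 1.09 with SFN+5-FU (adjusted p = 0.00220); with SFN its log2 fold change was -0.43 (adjusted p = 0.133), -0.11 without SFN replicate 2 and -0.63 without SFN replicate 1 (adjusted p = 0.0362).

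Among the 12 tested glycogen genes 7 fell and 2 rose with SFN+5-FU, and 6 fell and 2 rose with SFN. Over all tested genes 28.0% fell and 38.3% rose with SFN+5-FU, and 22.5% fell and 27.5% rose with SFN. PPP1R3B, which brings a phosphatase to glycogen, was at 0.37 to 0.49 FPKM with SFN+5-FU, 0.64 to 0.82 with SFN and 2.34 to 3.20 in control. It passed the filter only through the control libraries, so its fall, counted in both comparisons, follows in part from the filter. Across the alternatives tried the SFN+5-FU value of PPP1R3B ran from -2.48 to -0.54. The phosphoglucomutase PGM1, the branching enzyme GBE1, the phosphorylase PYGL and PPP1R3E had log2 fold changes of -0.87, -0.83, -0.78 and -0.60 with SFN+5-FU, and of -0.75, -0.65, -0.73 and -0.43 with SFN, all called. GYS1, glycogen synthase, fell with SFN+5-FU (-0.69, adjusted p = 0.00338), and with SFN it was -0.23 (adjusted p = 0.228) and -0.02 without SFN replicate 2. PGM2, a related mutase, rose in both (0.66 with SFN+5-FU and 0.57 with SFN).

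Of 7 other glycolytic isozymes and side enzymes 5 rose with SFN+5-FU, 4 rose with SFN and none fell. Over all tested genes 38.3% rose with SFN+5-FU and 27.5% with SFN. TIGAR, a fructose bisphosphatase known as a p53 target, was at 5.23 to 5.72 FPKM with SFN+5-FU, 3.77 to 5.20 with SFN and 2.24 to 3.02 in control (log2 fold change 0.82 with SFN+5-FU and 0.54 with SFN). PGAM5, a mitochondrial protein phosphatase of the mutase family, rose by 0.79 with SFN+5-FU and 0.70 with SFN, and BPGM, which makes 2,3-bisphosphoglycerate, rose with SFN+5-FU (0.57, adjusted p = 0.00265). FBP1, the gluconeogenic fructose bisphosphatase, was at 2.20 to 2.98 FPKM with SFN+5-FU, 2.41 to 3.76 with SFN and 0.95 to 1.16 in control (log2 fold change 0.82 with SFN+5-FU and 1.00 with SFN). Pyruvate carboxylase, PC, and the mitochondrial PCK2 fell (-0.54 and -0.92 with SFN+5-FU, -0.71 and -0.51 with SFN), the SFN call of PCK2 being lost without control replicate 1 (-0.49, adjusted p = 0.0835) or 2 (-0.47, adjusted p = 0.0923). That call was also lost after correction for GC content and length (-0.41, adjusted p = 0.0759). The same held with no filter (adjusted p = 0.0805) and in a fit of only the 6 libraries compared (adjusted p = 0.0623). GPD2, which passes cytosolic electrons to the respiratory chain, rose (0.82 with SFN+5-FU and 0.65 with SFN), and SLC25A12, the aspartate carrier of the malate-aspartate shuttle, fell with SFN+5-FU (-0.60, adjusted p = 0.000932).

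Several members have near-identical copies elsewhere in the genome. The name table held 69 named pseudogenes for 12 of the members, and 4 of them had a mean of at least 1 FPKM: TPI1P1 at 22.2, LDHAP4 at 8.86, GAPDHP1 at 5.01 and PGAM1P7 at 1.18 FPKM. Pseudogene FPKM reached at most 5.36% of the TPI1 level, 3.59% of LDHA, 1.57% of PGAM1 and 0.35% of GAPDH in any library. How the authors assigned reads shared by such copies is not stated, so the levels of these members and of SLC2A3 are uncertain.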

How the data were processed

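Poly(A) RNA of 9 SW480 libraries was sequenced in pairs of reads. The authors deposited one table of FPKM per gene and library. The submitters' processing notes name fastp, StringTie and edgeR, without versions. The sources used here do not give the aligner, build or annotation. Gene symbols came from a name table matched by Ensembl ID (41002 of 41041 matched).

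A filter kept 12662 genes whose FPKM averaged 1 or more across the 9 libraries. The fit used log2(FPKM + 1), on which changes of low genes come out smaller than their ratios, and was made with limma 3.58.1 (R 4.3.3) with a mean-variance trend, all 3 groups in one fit, with 3 contrasts (6 residual and 3.2 prior degrees of freedom). P-values are two-sided, adjusted over all tested genes by the Benjamini-Hochberg method, and a gene is called at an adjusted p below 0.05. The fit was also run on simulated data with independent noise of the same spread in every library. That simulation holds no library that deviates as SFN replicate 2 does, so it cannot judge the fit for that case. Replicate numbers were not treated as pairs. Since depth is unknown, precision is given by the replicates alone, which the design text calls biological without saying how they were grown.

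The members, role lists and lists of neighbouring genes were chosen with earlier results of these data known. Values per library are given for members called with a log2 fold change of at least 0.5 in size in any comparison, and neighbouring genes called at that size are named. The alternatives tried were other filters, pseudocounts, scalings and variance models, library weights, a replicate block, a correction for GC content and length, and fits with fewer libraries. Promoters are RefSeq's; Python 3.11.15 with pandas 2.3.3, SciPy 1.17.1 and matplotlib 3.10.9 was used for shares, motifs and figures.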

Additional observations from a re-analysis of the deposited data

How the results depend on the processing

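No sequencing depth is known and each group has 3 libraries, so precision rests on their spread. With 1 library left out at a time, the members that fell numbered 20 to 27 with SFN+5-FU and 10 to 16 with SFN against control. The calls over all tested genes moved as well. In either direction, 4845 to 7200 genes were called with SFN in those fits, and 8829 with library weights. Without SFN replicate 2, 31.3% of all tested genes fell with SFN+5-FU, beside 28.0% in the fit of all libraries. The members that rose numbered 3 to 5 with SFN+5-FU (5 as reported), and 3 under quantile normalization. With SFN they numbered 1 to 4 (2 as reported), and 1 with no filter, 0 under quantile normalization, 4 with library weights and 1 with only the 6 libraries compared. The median log2 fold change of the members with SFN+5-FU against control, -0.62, was -0.45 over those with a mean FPKM of at least 5 and -0.39 with a pseudocount of 5. With that higher filter, and so fewer genes tested, 3888 genes were called with SFN and 4903 with SFN+5-FU against control, where 6333 and 8387 were called at a mean FPKM of at least 1. Between SFN+5-FU and SFN, 1 gene was called in the fit of all 9 libraries, 7432 with library weights, 0 with only the 6 libraries compared, and 0 to 6478 with 1 library left out. The members lower in that comparison numbered 25 and the higher ones 4 with library weights, and 0 to 25 and 0 to 3 with 1 library left out, the highest counts being those without SFN replicate 2. Among members called in the main fit or in the alternative, direction turned for PGAM1 with SFN against control without SFN replicate 2. Its value was 0.16, against -0.17 to -0.04 without any other library, and 0.12 with library weights, not called. Direction also turned for PDHA1 with SFN+5-FU against control under quantile normalization (-0.03). The cause was not tested. Values that were called in no fit changed sign as well, among them HK1 (-0.31 to 0.02), GPI (-0.12 to 0.13) and ALDOA (-0.25 to 0.01) with SFN against control. Scaling moved the median of all tested genes by at most 0.05 in size. Same-numbered libraries of different groups did not deviate together: of 9 pairs, 1 had a correlation above 0.1 (range -0.143 to 0.107). With the replicate block, 1 member rose with SFN and 4 with SFN+5-FU against control, since PDP1 with SFN (adjusted p = 0.0559) and PDHA1 with SFN+5-FU (adjusted p = 0.0558) lost their calls, 6038 and 8151 genes were called in these comparisons, and 0 genes between SFN+5-FU and SFN; it changed no other call of a member.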
